A study of Drosophila melanogaster with 2 samples.

Results

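The genes described here are 10 Polycomb group genes of Drosophila melanogaster, chosen by name and all matched in the gene annotation, of 13945 protein-coding genes and 18164 genes in all. They are ph-d, ph-p, Pc, Psc, Su(z)2 and Sce of Polycomb repressive complex 1 (PRC1), E(z), esc and Su(z)12 of Polycomb repressive complex 2 (PRC2), and pho of the Pho repressive complex (PhoRC). Chromatin immunoprecipitation with sequencing was done on whole adult females, of unknown age, from a line with a stable transgene for CG14711, a zinc finger protein, joined at its C terminus to eGFP, and an antibody to GFP was used for the precipitation. There was 1 group with 2 samples from separate biosamples, numbered replicate 3 and replicate 4. Every value is of chromatin precipitated with the antibody to GFP, averaged over all tissues of the fly. Peaks came from 4 lists, from replicate 3, from replicate 4, from both pooled, and an optimal list that passed the irreproducible discovery rate (IDR), which scores how well ranked peaks repeat. The 5654 peaks of the IDR list are the 5654 strongest of the 30000 pooled peaks. Both replicate lists also hold 30000 peaks. Signal is the authors' value for each peak and is compared only within a list, rank 1 is the strongest peak of a list, and the number of reads behind each value is unknown.

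Polycomb group proteins keep developmental genes silent through cell divisions, and were found in flies through mutants in which homeotic genes are expressed in the wrong segments. PRC2 methylates histone H3 and PRC1 binds that mark, ubiquitylates histone H2A and compacts chromatin, while PhoRC brings a sequence-specific DNA-binding protein to Polycomb response elements, the sites where these complexes are recruited. The peaks below describe chromatin precipitated with the antibody to GFP at the genes that encode these proteins. They carry no information on where the Polycomb proteins themselves bind.

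A promoter summit is a peak summit within 500 bp of an annotated transcription start site of the gene, and a gene body summit lies inside the gene and farther than 500 bp from each of its start sites. Of the 10 genes, 7 had a promoter summit in the IDR list, against 30.7% of protein-coding genes. These were ph-d, ph-p, Pc, Su(z)2, E(z), esc and Su(z)12, and Psc, Sce and pho had none. Among the strongest 2827 IDR peaks, 5 of the 10 had a promoter summit (ph-d, ph-p, Pc, E(z) and Su(z)12), against 17.8% of protein-coding genes. The longer lists separate genes less. The pooled list had a promoter summit at 9 of the 10 genes against 60.9% of protein-coding genes, the replicate 3 list at 10 against 59.8%, and the replicate 4 list at 9 against 60.2%. The median rank of the strongest promoter summit, with a gene without one counted last, was 2793.5 over the 10 genes and 14482 over all protein-coding genes in the pooled list. It was 2361.5 and 15690 in the replicate 3 list, and 2833.5 and 15065 in the replicate 4 list. No test was made, since the genes were chosen with results of these lists known.

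**Figure D1:**
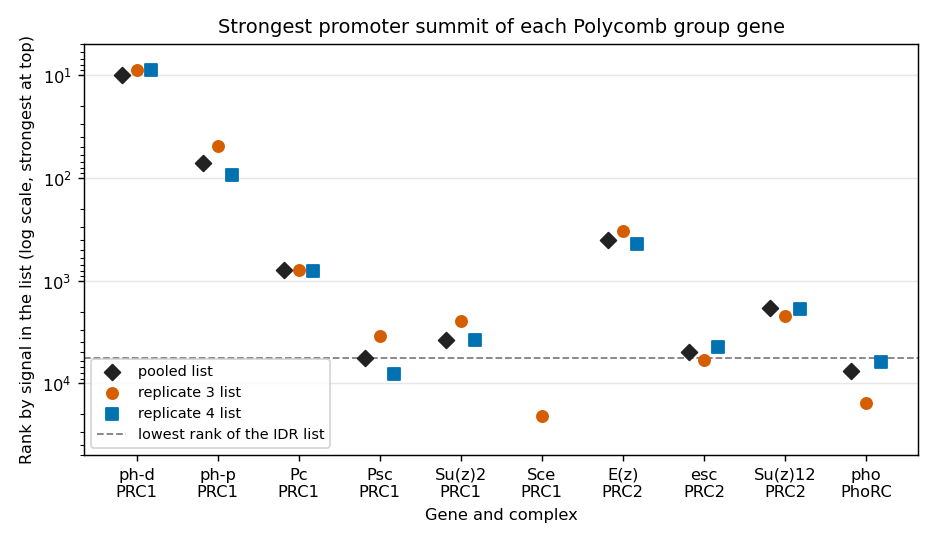
Rank of the strongest promoter summit of each gene (vertical axis, log scale, strongest at top) in the pooled, replicate 3 and replicate 4 lists, with genes grouped by complex. The dashed line is the lowest rank of the IDR list, 5654. The ph-d points lie at ranks 9 to 10 and the ph-p points at 49 to 94, while Sce has a point in the replicate 3 list only.

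The duplicated polyhomeotic genes, ph-d and ph-p, encode the Polyhomeotic subunits of PRC1, which carry a SAM domain that joins them into polymers. They lie head to tail on the X chromosome, both on the minus strand, ph-d (FBgn0004860) at 2115727 to 2123286 and ph-p (FBgn0004861) at 2126210 to 2138371 in dm6. The strongest ph-d summit, 63 bp upstream of its outermost start site, had a signal of 4920 and rank 10 in the IDR list. Its signal was 1926 with rank 9 in replicate 3, and 2997 with rank 9 in replicate 4. The strongest ph-p promoter summit, 51 bp upstream of an internal start site, had a signal of 2812 and rank 72 in the IDR list. It had 1262 with rank 49 in replicate 3, and 1591 with rank 94 in replicate 4. Both summits were thus among the first 100 peaks of every list, and ph-d stood above ph-p in each. At or above ph-d stood 10 protein-coding genes, itself included, which is 0.234% of the 4276 with an IDR promoter summit, and at or above ph-p stood 95, which is 2.22%.

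Both genes also had a second summit farther upstream, at 269 bp in ph-d and 250 bp in ph-p. At ph-d this summit had a signal of 920.1 and rank 568 in the IDR list, 371.8 and rank 458 in replicate 3, and 558.6 and rank 657 in replicate 4. At ph-p it had 1354 and rank 322 in the IDR list, 557.7 and rank 241 in replicate 3, and 592.8 and rank 599 in replicate 4. Here ph-p stood above ph-d in every list. The ratio of ph-d to ph-p was 1.75 at the summit near the start site and 0.68 at the upstream summit in the IDR list, 1.53 and 0.667 in replicate 3, and 1.88 and 0.942 in replicate 4. Summed over all promoter summits of each gene, the ratio in the IDR list was 0.874, below 1. The summits of a pair lay 206 bp apart at ph-d and 199 bp apart at ph-p. No neighbouring summits lay closer than 199 bp in any of the lists, and 77.4% of the IDR neighbours under 300 bp apart were 190 to 210 bp apart, so this spacing is shared by most closely spaced summits.

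These summit pairs lie on copied sequence. Aligned over 300 bp around each summit, ph-d and ph-p had 268 identical bases in 291 columns (92.1%) at the summit near the start site and 265 in 282 columns (94.0%) at the upstream one. The aligned part of the central 100 bp is shown for each pair. The first pair carries the strongest promoter peak of each gene, and both pairs show how far the copies match under the summits. All are minus-strand sequence of dm6 outside annotated exons, read from the RefSeq copy of the assembly, and capitals mark bases that differ from the other gene or have no partner there. The first pair, near the start sites, spans chrX:2123299-2123385 and chrX:2136868-2136955, and the second pair, upstream, spans chrX:2123505-2123580 and chrX:2137071-2137146.
ph-d, start site: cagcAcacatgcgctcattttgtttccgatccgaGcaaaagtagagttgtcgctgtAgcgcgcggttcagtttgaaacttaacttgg
ph-p, start site: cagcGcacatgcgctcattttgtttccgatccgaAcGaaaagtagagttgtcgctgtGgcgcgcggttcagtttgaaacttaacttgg
ph-d, upstream: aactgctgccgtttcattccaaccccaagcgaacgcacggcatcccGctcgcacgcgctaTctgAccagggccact
ph-p, upstream: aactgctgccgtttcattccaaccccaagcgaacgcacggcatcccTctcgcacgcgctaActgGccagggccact
The first pair shares 84 of 88 aligned columns (95.5%) and the second 73 of 76 (96.1%). Reads from copied sequence can be hard to place. Of the 270 words of 31 bases in the 300 bp around each summit, 38 occurred more than once in the assembly at the first ph-d summit and 88 at the second, against 29 at the first ph-p summit and 96 at the second. All of these repeats had a copy at the other ph gene. How reads with more than 1 possible position were treated is not given in the sources used here, and the part this played in the ph signals was not tested.

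Beyond these summit pairs, the genes differed in their peaks. ph-p had 4 IDR promoter summits inside 1 peak interval of 2108 bp, the widest of the IDR list, whose median width was 307 bp. The third, 499 bp upstream of the same internal start site, had a signal of 698.1 and rank 813 in the IDR list. In replicate 4 it had 743.9 and rank 411, and in replicate 3 155.5 and rank 1490, where its summit lay 529 bp away and so just outside the 500 bp window. The fourth, in the 5′ UTR 451 bp downstream of the outermost ph-p start site, had 2188 and rank 127, with 700.5 and rank 163 in replicate 3, and 1517 and rank 105 in replicate 4. A further ph-p summit lay in an intron, 1186 bp downstream of the nearest ph-p start site, with 2669 and rank 83 in the IDR list, 984.8 and rank 85 in replicate 3, and 1688 and rank 76 in replicate 4. Against the strongest ph-p promoter summit, that intronic summit was slightly lower in the IDR list (2669 against 2812) and lower in replicate 3 (984.8 against 1262). In replicate 4 it was higher (1688 against 1591), so the order of these summits changed with the replicate. None of the 31-base words of the intronic summit occurred elsewhere in the assembly, nor did those of the 5′ UTR summit. The 100 bp around the intronic summit, chrX:2135386-2135485 on the minus strand, is shown as the strongest gene body peak of the 10 genes and holds none of the 6 words searched for.
ph-p, intron: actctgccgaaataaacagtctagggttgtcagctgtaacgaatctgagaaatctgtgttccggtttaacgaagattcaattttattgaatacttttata

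At ph-d, 4 promoter summits were in the IDR list as well, but only the pair described above was strong. The other 2 lay in an intron near the second ph-d start site, with signals of 161.5 (rank 4996) and 160.1 (rank 5058). The first of these had no summit within 100 bp in replicate 4. Between the genes, 2 further IDR summits lay beyond the promoter windows. The nearer, 844 bp upstream of ph-d and inside the same 1413 bp interval as its promoter pair, had a signal of 604.6 and rank 984, with 104.8 and rank 2663 in replicate 3, and 522.8 and rank 718 in replicate 4. The farther, 2410 bp upstream of ph-d, had 177.1 and rank 4465. Over both genes with 500 bp on either side, 23645 bp in all, 11 IDR summits gave 0.465 per kb, against 0.0498 per kb over the X chromosome. The first window was drawn around genes and their start sites, while the second takes in all sequence. The density over other genes with such flanks was not computed. Having 4 or more IDR promoter summits was true of 2 of the 10 Polycomb group genes and of 0.0932% of protein-coding genes, 13 in number. The others were Ptpmeg2, Rtnl1 and SNF4Agamma with 6 each, Pgk with 5, and Bacc, Eip75B, Moe, Reph, dnc, scny and spi with 4. When summits in 1 interval were counted once, a setting chosen after seeing the data, 7 genes had 4 or more, and neither ph gene was among them.

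**Figure D2:**
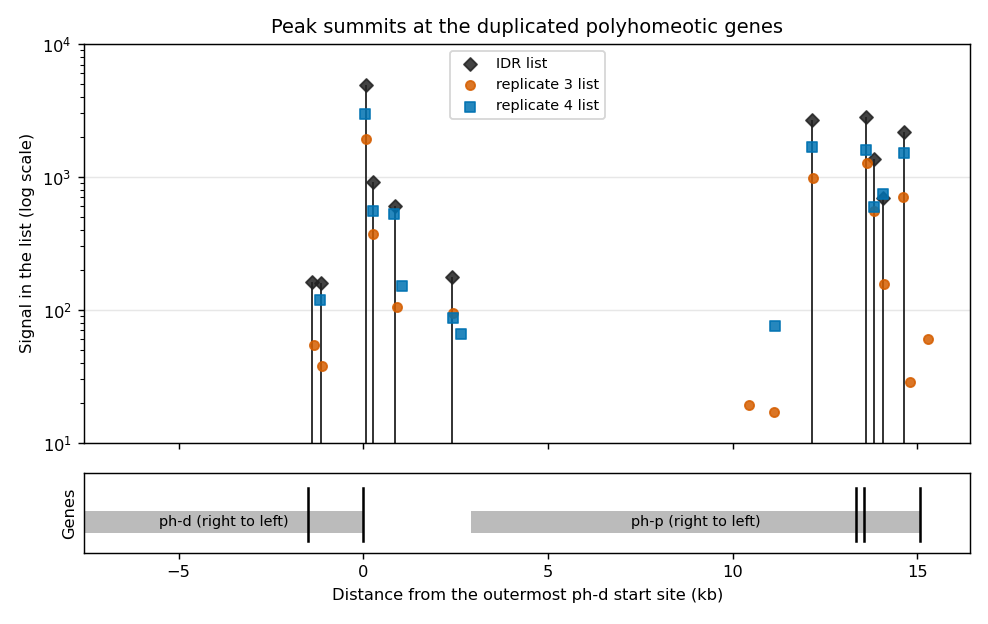
Signal of each peak summit (vertical axis, log scale) against distance from the outermost ph-d start site in kb, for the IDR, replicate 3 and replicate 4 lists, with the genes as grey bars and their start sites as black ticks below. The 4920 summit of ph-d stands at its outermost start site, and the ph-p summits of 2669, 2812, 1354, 698.1 and 2188 form a row across its 3 start sites.

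By the smallest sum of absolute log2 rank differences over the IDR, replicate 3 and replicate 4 lists, the protein-coding genes nearest to ph-d in their strongest promoter summit were Hmt4-20 (1.07), and CG15012 and Fdx2, which share 1 peak (1.08). Nearest to ph-p were CG1737 (0.09), and dpa and didum, which also share a peak (0.10). This is a likeness of rank in 3 lists of the same 2 samples, and the IDR list was built from both replicates.

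Pc encodes the chromodomain subunit of PRC1 that binds methylated histone H3, and gave the group its name. The gene (FBgn0003042) lies on 3L at 21306138 to 21318020, minus strand. Its 1 promoter summit, 48 bp upstream of the start site, had a signal of 719.3 and rank 787 in the IDR list. In replicate 3 it had 252.0 and rank 782, and in replicate 4 479.0 and rank 811. The rank of Pc was nearly the same in each list, and 856 protein-coding genes (20.0% of those with an IDR promoter summit) stood at or above it. The bases upstream of the start site around this summit, chr3L:21318021-21318117 on the minus strand, are shown because they hold, in capitals, a match to CGATA on the other strand, the short word contained in sites of the promoter factors DREF and BEAF-32.
Pc, promoter: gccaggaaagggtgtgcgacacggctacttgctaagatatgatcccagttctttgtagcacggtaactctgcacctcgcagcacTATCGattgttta

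Sce encodes the RING protein that is the catalytic ubiquitin ligase subunit of PRC1. The gene (FBgn0003330) is short, on 3R at 27680431 to 27682029. It had no promoter or body summit in the IDR, pooled or replicate 4 lists. The replicate 3 list had 1, in a coding exon 130 bp downstream of the start site, with a signal of 21.2, rank 20872 and a −log10 q of 1.35. The lowest signal of that list was 14.7 and its median 28.9, so this was a weak peak in 1 replicate. Of the 10 genes, Sce alone lacked a pooled peak.

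Psc and Su(z)2 encode related RING proteins of PRC1 that compact chromatin and stand in for each other in part. They lie on 2R, with Psc (FBgn0005624, 12965997 to 12980994, minus strand) and Su(z)2 (FBgn0265623, 12996501 to 13007911, plus strand) pointing away from each other across 15506 bp. The strongest promoter summit of Psc in the pooled list, in the 5′ UTR 93 bp upstream of its inner start site, had a signal of 145.8 and rank 5676, just below the IDR list's last rank of 5654 and its lowest signal of 146. In replicate 3 the strongest was 88.5 with rank 3466, and in replicate 4 69.1 with rank 8053. Psc was therefore within the first 5654 peaks in replicate 3 and outside them in replicate 4. The strongest Su(z)2 promoter summit, 24 bp upstream of its outer start site, had 202.7 and rank 3748 in the IDR list, 109.9 and rank 2492 in replicate 3, and 133.6 and rank 3788 in replicate 4. A second summit, 41 bp downstream of the inner start site, had 149.3 and rank 5511, near the end of the IDR list. The best rank of any promoter summit of the pair was thus 2492, in replicate 3.

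Psc did have an IDR summit in an intron, 5093 bp downstream of the nearest start site. Its signal was 188.5 with rank 4118 in the IDR list, 65.9 with rank 5394 in replicate 3, and 128.4 with rank 3981 in replicate 4. Together with the ph-p intron this made 2 of the 10 genes with a gene body summit in the IDR list, against 8.40% of protein-coding genes. The strongest summit of the region belonged to neither gene by these windows. It lay between them at 12985194, 4200 bp upstream of the outermost Psc start site and 11307 bp upstream of Su(z)2, outside any annotated gene and 173 bp from the start site of lncRNA:CR44339. It had a signal of 2568 and rank 93 in the IDR list, 959.8 and rank 90 in replicate 3, and 1609 and rank 87 in replicate 4. That placed it beside the ph-p summits in every list. A further pair of intergenic IDR summits, 10005 and 10653 bp upstream of Psc, had 312.8 (rank 2201) and 212.8 (rank 3521).

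**Figure D3:**
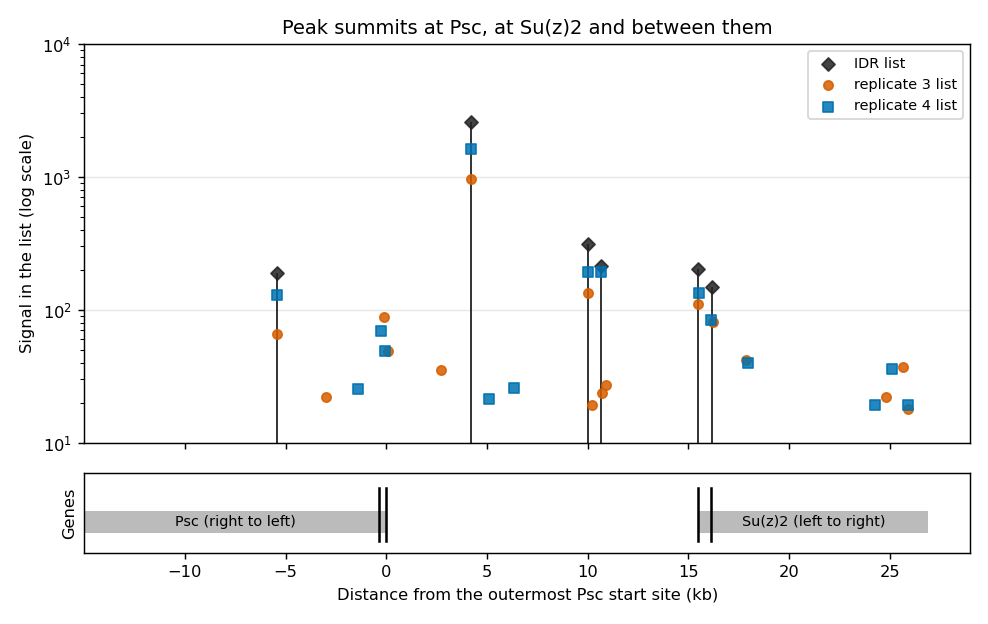
Signal of each peak summit (vertical axis, log scale) against distance from the outermost Psc start site in kb, for the IDR, replicate 3 and replicate 4 lists, with the genes as grey bars and their start sites as black ticks below. The tallest summit, 2568 in the IDR list, lies between the genes, and no IDR summit lies at the Psc start sites.

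E(z), the histone methyltransferase of PRC2, had the strongest promoter peak of the complex. The gene (FBgn0000629) lies on 3L at 10634575 to 10638130, minus strand. Its 1 summit, in an intron 92 bp downstream of the outermost start site, had a signal of 1165 and rank 404 in the IDR list. It had 465.1 and rank 333 in replicate 3, and 716.2 and rank 445 in replicate 4, where the summit lay nearer to the inner start site. At or above E(z) stood 483 protein-coding genes, 11.3% of those with an IDR promoter summit. Cnep1r2, on the plus strand, starts 16 bp from the outermost E(z) start site, so the peak lies within 500 bp of both genes and cannot be assigned to 1 of them. The intronic bases next to the summit, chr3L:10637988-10638041 on the minus strand, are shown because the 100 bp around it had the lowest GC content of any of the summits, 16.0%.
E(z), intron: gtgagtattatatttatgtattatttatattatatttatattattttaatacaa

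Su(z)12 encodes a zinc finger subunit needed for PRC2 activity, and lies on 3L (FBgn0020887, 19918242 to 19923462, minus strand). Its stronger summit, in the 5′ UTR 73 bp downstream of the start site, had a signal of 364.3 and rank 1839 in the IDR list, and a second, 147 bp upstream, had 229.0 and rank 3229. Replicate 3 also gave 2 summits, with 118.2 (rank 2231) and 82.3 (rank 3889), while replicate 4 gave 1 between them, 30 bp upstream, with 242.6 and rank 1879. The replicates therefore placed peaks over the same promoter but at different positions. Pfdn6 starts 209 bp from Su(z)12 on the other strand, and its start site is 62 bp from the second summit. The 100 bp around the second summit, chr3L:19923559-19923658 on the minus strand, is shown as the only one of the 15 promoter windows with GCCAT, the core word of Pho sites, which is on the other strand here and in capitals.
Su(z)12, upstream: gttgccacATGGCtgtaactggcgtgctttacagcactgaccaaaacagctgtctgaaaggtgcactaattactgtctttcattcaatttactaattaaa

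esc encodes the WD40 subunit of PRC2 that recognises methylated histone H3, and lies on 2L (FBgn0000588, 11827204 to 11829405, minus strand). Its promoter summit, 67 bp upstream of the start site, had a signal of 162.6 and rank 4948 in the IDR list. In replicate 3 it had 61.6 and rank 5933, and in replicate 4 117.5 and rank 4464. It was the weakest of the 7 genes in the IDR list, with 3882 protein-coding genes (90.8%) at or above it, and in replicate 3 it lay beyond the first 5654 peaks.

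pho encodes the zinc finger protein that brings PhoRC to DNA, and is the only member on chromosome 4 (FBgn0002521, 1172469 to 1181628, minus strand). It had no IDR summit. In the pooled list its strongest promoter summit, 187 bp upstream of the start site, had a signal of 112.9 and rank 7642. In replicate 4 the strongest, 222 bp upstream, had 88.6 and rank 6134. In replicate 3 the strongest lay elsewhere, in the 5′ UTR 141 bp downstream of the start site, with 28.3 and rank 15334. The upstream summit of replicate 3, at 164 bp, had 17.7 and rank 24974. The replicates placed pho far apart in rank, and neither placed it within the first 5654 peaks.

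Set side by side, PRC1 had an IDR promoter summit at 4 of 6 genes and PRC2 at 3 of 3, against 30.7% of protein-coding genes. Among the strongest 2827 IDR peaks the counts were 3 of 6 for PRC1 and 2 of 3 for PRC2, against 17.8%. With only the first 5654 peaks of replicate 3 they were 5 of 6 and 2 of 3, against 29.4%, because Psc entered and esc left. With those of replicate 4 they were 4 of 6 and 3 of 3, against 30.5%. The median rank of the strongest promoter summit was 2267.5 for PRC1 and 1839 for PRC2 in the pooled list, 1637 and 2231 in replicate 3, and 2299.5 and 1879 in replicate 4. The order of the complexes turned with the replicate, so no difference between them held across the lists. The spread within PRC1, from rank 10 at ph-d to no pooled peak at Sce, was wider than that within PRC2, from 404 at E(z) to 4948 at esc. This sets 6 genes against 3, and a range tends to grow with the number of genes, so it shows no difference between the complexes.

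In position, the strongest summit of ph-d, ph-p, Pc, Su(z)2, E(z), esc and Su(z)12 lay within 92 bp of a start site in the IDR list, 5 of them upstream and 2 downstream. Of the 15 IDR promoter summits of the 10 genes, 12 (80.0%) were repeated, with a summit of each replicate no farther than 100 bp, and for these the replicates lay 8 to 88 bp apart, with a median of 29. By gene, 8 of the 10 had a pooled promoter summit repeated in this way, against 45.1% of protein-coding genes. Of the 3496 IDR promoter summits of protein-coding genes, 3204 (91.6%) were repeated, with a median of 27 bp. The 3 exceptions among the 15 were the inner ph-d summit described above and both Su(z)12 summits, whose nearest replicate 4 summit was the single one between them.

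**Figure D4:**
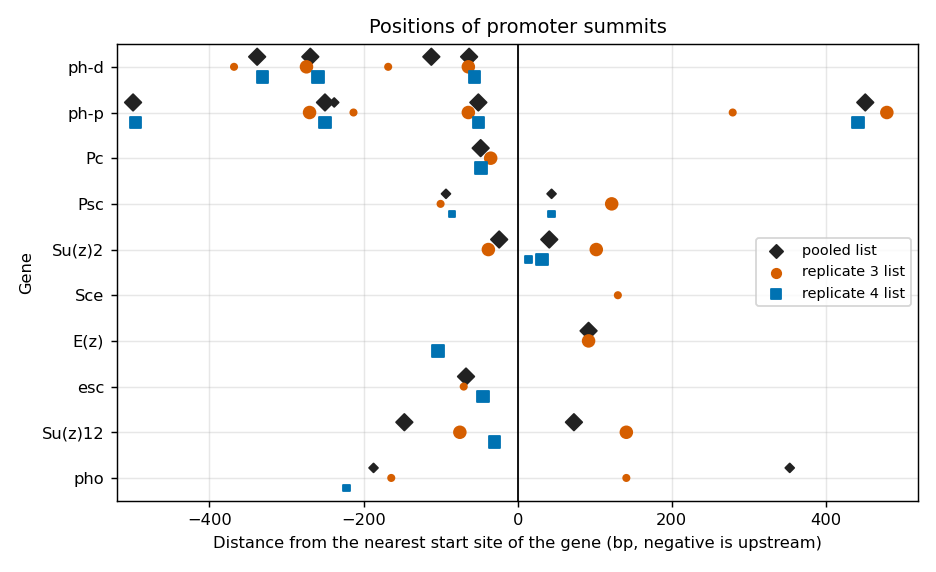
Distance of every promoter summit of the 10 genes from the nearest start site of its gene in bp (negative is upstream), in the pooled, replicate 3 and replicate 4 lists. Large symbols rank within the first 5654 peaks of their list and small symbols below. Pc and esc have their summits 35 to 70 bp upstream in every list, while Su(z)12 has its summits on both sides of its start site. Those of E(z) all lie between its outermost and inner start sites, and change sign because the nearest site changes.

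The sequence under the summits varied from gene to gene. GC content in the 100 bp around the 15 IDR promoter summits ran from 16.0% to 62.0% with a median of 47.0%, against a median of 34.0% (middle 50% of values 26 to 44%) around 3619 IDR promoter summits of all genes and 44.0% around 23581 annotated start sites. The 15 summits include both copied ph pairs, which had 47.0% and 51.0% near the start sites and 56.0% and 62.0% upstream. For 6 words, both strands were searched in the same windows. CAACCCTG, a word found in earlier work on these data, was in none of the 15 windows and in 2.87% of all IDR promoter summits. TATCGATA, the full DREF word, was in none against 3.92%, and GGTCACAC, the M1BP word, in none against 2.76%. CGATA, which TATCGATA contains, was in 2 (ph-p in the 5′ UTR and Pc) against 23.4%, GAGAG, the GAGA factor word, in 2 (the upstream ph-p summit and the outer Su(z)2 summit) against 9.31%, and GCCAT in 1 (Su(z)12) against 13.5%. With 15 windows, counts this small do not separate the genes from the background, and a match shows only that the letters are there.

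Beyond the 10 genes, 26 other genes of Polycomb complexes or of factors that bind Polycomb response elements were matched, from 27 symbols. Of these, 17 had an IDR promoter summit, against 30.7% of protein-coding genes, and 11 had one among the strongest 2827 peaks, against 17.8%. The counts by complex below are read against the same 30.7%. Among PRC1-associated genes, 3 of 4 did: l(3)73Ah, which encodes a RING protein of a variant PRC1 (391.3, rank 1687), the histone demethylase gene Kdm2 (169.7, rank 4687) and Scm (166.4, rank 4794). The l(3)73Ah summit lay 332 bp upstream of the start site, so a 250 bp window loses it. At the start site of its IDR summit, Kdm2 ranked 2062 in replicate 3 and 7820 in replicate 4. Its strongest promoter summit in replicate 4, at the other start site, ranked 6246. Both replicate 4 ranks were beyond the first 5654 peaks. RYBP had no IDR promoter summit (pooled rank 16452). Among PRC2-associated genes, 4 of 5 did: escl, the paralogue of esc (852.1, rank 630), the cofactor genes Jarid2 (327.7, rank 2080) and jing (310.1, rank 2227), and the histone-binding Caf1-55 (192.5, rank 4007). The Jarid2 summit lay 57 bp from Jarid2 but 16 bp from Uch-L5, so Jarid2 loses it when only the nearest start site counts. Pcl had none (pooled rank 6675). esc ranked 5933 in replicate 3 and 4464 in replicate 4, against 461 and 808 for escl.

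Both other PhoRC genes had one, phol, the paralogue of pho (912.0, rank 576), and Sfmbt, the partner of Pho (438.8, rank 1468). The Sfmbt summit lay 283 bp from Sfmbt but 82 bp from CG5439, and Sfmbt loses it both with a 250 bp window and when only the nearest start site counts. By the strongest promoter summit of each list, which for pho lay at different positions, pho ranked 15334 in replicate 3 and 6134 in replicate 4. The ranks of phol were 451 and 684. For both pairs of paralogues, esc with escl and pho with phol, the gene outside the set of 10 had the stronger peak in the IDR or pooled list and in both replicates. Asx, of the deubiquitinase complex PR-DUB, had none (pooled rank 9571). Of the other Polycomb group genes, mxc (921.7, rank 566) and E(Pc) (184.0, rank 4264) had one, and sxc, crm and corto did not (pooled ranks 6982, 6005 and 6854). Of the 9 genes for factors that bind Polycomb response elements or act with those that do, 6 had one. The zinc finger gene cg was the strongest of all 26 (4239, rank 19, with ranks 30 and 16 in replicates 3 and 4). Trl, the GAGA factor gene (439.1, rank 1465), Adf1 (326.6, rank 2091), lolal (295.2, rank 2378), psq (230.6, rank 3208) and Dsp1 (177.9, rank 4434) followed, and Spps, grh and z had none (pooled ranks 7287, 9567 and 8108). The Adf1 summit lay 89 bp from Adf1 but 58 bp from Dpit47, so Adf1 loses it when only the nearest start site counts. Dsp1 ranked 1602 in replicate 3 and 11887 in replicate 4, and so was beyond the first 5654 peaks of replicate 4. Other genes also start within 500 bp of the strongest IDR promoter summits of cg (mRpS16), mxc (Larp7), phol (CG3552, asRNA:CR45873) and Dsp1 (CG9921). The same held for Caf1-55 (CG31344) and l(3)73Ah (asRNA:CR45895). Each of these summits was nearest to the gene of the wider list, but could not be assigned to 1 gene. All 26 had a promoter summit in the pooled list, against 60.9% of protein-coding genes.

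**Figure D5:**
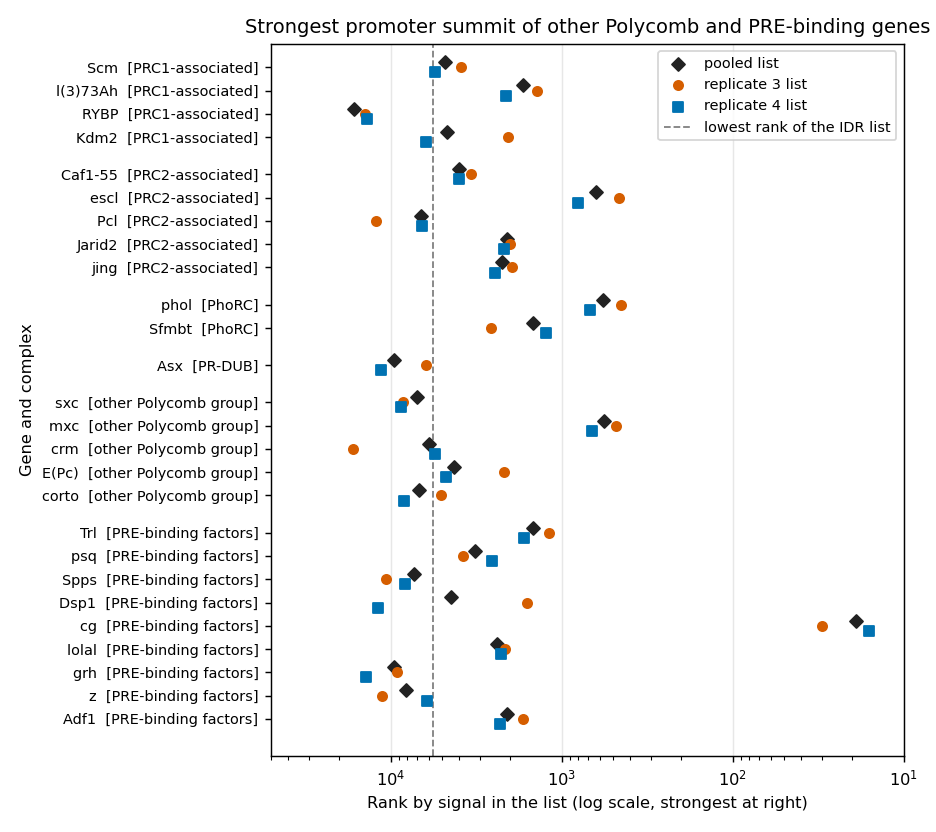
Rank of the strongest promoter summit of the 26 other genes (horizontal axis, log scale, strongest at right) in the pooled, replicate 3 and replicate 4 lists, grouped by complex. The dashed line is the lowest rank of the IDR list, 5654. cg lies far to the right at ranks 16 to 30, and escl, phol and mxc lie between 451 and 808.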

How the data were processed

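Peak lists of 2 chromatin immunoprecipitation samples of 1 group were used, in dm6 coordinates, per the labels. The deposited text records say that a list was called on each replicate with a control alignment, a further list on both pooled, and the optimal list derived from these by IDR. The control was not analysed here, and no source used here names the aligner, the caller or the IDR threshold (not given in the sources used here). For each peak, the signal and the −log10 q are the authors' values, as deposited, and the summit is the deposited offset from the peak start (unit other). The −log10 q values stop at a maximum of 4.15 in the pooled list, shared by 7049 peaks, so ranks rest on signal. The lists hold no read counts, so depth and its precision are unknown.

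Genes and start sites came from the Ensembl annotation BDGP6.54, release 115, without transposable elements, on 2L, 2R, 3L, 3R, 4 and X. Sequence came from the RefSeq copy of the assembly. Computation used Python 3.11.15, pandas 2.3.3 and NumPy 2.4.6, and the assignment of summits to genes was tested on simulated summits. Named genes are the 10 members, genes starting within 500 bp of their promoter summits, genes of the wider list, and the 3 nearest in rank to each ph gene. Genes with 4 or more promoter summits, lncRNA:CR44339 and the genes named beside summits of the wider list were named after their values were seen. Those beside the wider list include Uch-L5, CG5439, Dpit47 and mRpS16. The members and lists were chosen with earlier results of these data known, so no p-values were computed. Alternatives were other windows, list lengths, single replicates, nearest start sites only and other rules for repeated summits.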

Additional observations from a re-analysis of the deposited data

How the results depend on the processing

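Over the alternatives, 5 to 9 of the 10 genes, 3 to 5 of the 6 PRC1 genes and 2 to 3 of the 3 PRC2 genes had a promoter summit. The 7 of 10 genes with an IDR promoter summit were the same 7 with windows of 250 and 1000 bp and when only nearest start sites counted. The ph-d to ph-p ratio fell below 1, to 0.874, when signal was summed over promoter summits, and was 1.53 to 1.88 with 1 replicate left out. The sum takes in 3 strong ph-p summits beside the strongest, against 1 at ph-d. The share of protein-coding genes with an IDR promoter peak moved to 26.4% at 250 bp, 34.2% at 1000 bp, 17.8% in the strongest 2827 IDR peaks, 60.9% in all pooled peaks and 22.7% with nearest start sites only, and ran from 29.4 to 30.5% with 1 replicate left out. Against those shares, the wider list, with 17 of 26 genes in the IDR list, had 15 at 250 bp (l(3)73Ah and Sfmbt lost), 17 at 1000 bp, 11 in the strongest 2827 IDR peaks, 26 in all pooled peaks and 14 with nearest start sites only (Jarid2, Sfmbt and Adf1 lost). It had 16 without replicate 3 (Kdm2 and Dsp1 lost, crm gained) and 18 without replicate 4 (corto gained). Gene body summits of the 10 genes, 2 in the IDR list, numbered 12 in all pooled peaks and 1 in the strongest 2827 IDR peaks. They numbered 2 without replicate 3 and 3 without replicate 4. The share of protein-coding genes with a gene body summit (8.40%) was computed for the IDR list only, so the other counts have no background. Genes with a promoter summit repeated in both replicates, 8 within 100 bp, against 45.1% of protein-coding genes, numbered 5 within 50 bp (33.0%), 9 by overlap of peaks (52.8%) and 5 among the first 5654 peaks of each replicate (21.9%). Genes with 4 or more promoter summits numbered 7 when summits in 1 interval were counted once. With 2 replicates, leaving out 1 gives the rank in the other, so single-gene ranks have no further check. No paired analysis was possible because the series has 1 group.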

Other observations

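Some genes of the wider list had stronger summits inside the gene than at the promoter. Trl, which encodes GAGA factor, had an intronic summit with a signal of 2144 and rank 133 in the IDR list, with 662.7 and rank 179 in replicate 3, and 1482 and rank 112 in replicate 4. Kdm2 had one 4252 bp downstream of a start site, with 1834 and rank 184 in the IDR list, 545.8 and rank 248 in replicate 3, and 1311 and rank 154 in replicate 4. Adf1 had one 811 bp downstream of a start site with 1129 and rank 415 in the IDR list. In all 3, the gene body summit exceeded the strongest promoter summit of the gene. The same held in the IDR list for Dsp1 (466.0 against 177.9), psq (361.4 against 230.6) and jing (338.6 against 310.1). The share of all protein-coding genes with a stronger gene body summit was not computed.

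With 1 group of 2 samples and no untagged or wild-type sample used here, these values do not show how much of a peak depends on the tagged protein. Signal follows the authors' scale, lists of fixed length say nothing of total binding, and whole flies average over all tissues. Ranks near the end of the IDR list, such as those of Psc, esc and the second Su(z)2 summit, crossed its limit in 1 replicate or lay beside it. The ph summits lie partly in repeated sequence, and peaks between divergent genes lie near both.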
